A study of Mus musculus with 14 samples.

Results

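Dkk3, Wnt10a and 8 further genes of Wnt signalling were followed in mouse cortex: the ligand genes Wnt4, Wnt5a, Wnt7a, Wnt7b and Wnt9a, the secreted antagonist genes Sfrp1 and Sfrp2, and the feedback gene Axin2. The 10 genes were taken by symbol from a deposited table of 34193 genes, and all 10 had enough reads to be among the 13815 genes tested. Dkk3 and Wnt10a were chosen by their difference in expression between genotypes in these same animals, and the others were added by family with those results known. Differences between genotypes in these 10 genes are therefore given as a description, with no test.

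The animals were 14 C57BL/6J mice aged 8 weeks. Of these, 7 carried a heterozygous knockout of Dnmt3a, the gene of an enzyme that sets new DNA methylation, and 7 were wild-type littermates, with 4 females and 3 males in each genotype. The labels do not say how the knockout allele was built or which cells carry it. Sample titles open with 1 of 6 prefixes, each shared by animals of both genotypes and 1 sex. Prefixes 119 and 141 (6 animals, called set B here) stood apart from prefixes 046, 047, 048 and 139 (8 animals, set A) in an earlier principal component of these counts, and the labels do not say what a prefix marks. Each animal gave 8951835 to 14335406 counted reads. In CPM (read counts scaled to a common library total), Dnmt3a itself ranged from 124 to 164 among wild types and from 84.3 to 118 among heterozygotes. Its log2 fold change was -0.57 with an SE of 0.0752 (edgeR, adjusted p = 0.00774). Labels do not name the litters, so the p-values measure the spread between these animals, whatever its source.

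Wnt proteins are secreted, lipid-modified ligands that bind Frizzled receptors, with Lrp5 or Lrp6 as partners in the branch that stabilises beta-catenin. In that branch beta-catenin enters the nucleus with Tcf and Lef factors and switches on target genes such as Axin2, whose product rebuilds the complex that degrades beta-catenin. Sfrp proteins bind Wnt ligands outside the cell, and Dickkopf proteins mostly act on the Lrp partner, although Dkk3 is the most distant member of that family. In brain, Wnt7a and Wnt7b are known for driving vessel growth into neural tissue and for roles at synapses, and Wnt5a for signalling without beta-catenin.

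The reference promoters of the 2 genes below are shown because Dnmt3a methylates cytosines. Of the genes matched to a promoter, Wnt9a and Axin2 had the highest log2 fold changes in the direction of heterozygotes. Wnt7a, also matched, had a larger difference than Axin2 in the other direction (-0.15 against 0.099). Each window runs from 250 bases before to 50 bases after the annotated start (RefSeq, GRCm38.p6), 5′ to 3′ on the gene's strand, with CG dinucleotides in capitals.
Wnt9a, chr11:59306680-59306979, plus strand: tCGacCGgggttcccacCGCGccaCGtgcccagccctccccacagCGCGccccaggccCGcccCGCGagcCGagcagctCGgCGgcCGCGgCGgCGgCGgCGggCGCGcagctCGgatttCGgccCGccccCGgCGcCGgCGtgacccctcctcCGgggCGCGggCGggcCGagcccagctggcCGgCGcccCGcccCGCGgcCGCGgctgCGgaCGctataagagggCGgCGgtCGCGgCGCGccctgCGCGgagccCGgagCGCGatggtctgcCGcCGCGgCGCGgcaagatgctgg
Axin2, chr11:108920099-108920398, plus strand: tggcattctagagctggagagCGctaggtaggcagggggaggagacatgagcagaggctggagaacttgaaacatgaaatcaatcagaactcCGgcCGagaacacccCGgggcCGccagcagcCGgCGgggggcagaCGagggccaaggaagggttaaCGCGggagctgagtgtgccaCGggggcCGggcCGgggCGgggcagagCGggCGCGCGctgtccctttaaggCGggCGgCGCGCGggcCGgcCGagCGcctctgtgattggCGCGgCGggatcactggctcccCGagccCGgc
The Wnt9a window held 58 CG dinucleotides, as many as or more than 99.9% of the 32851 windows in the table, and the Axin2 window held 31 (90.5%). The median window held 7. Wnt4 had 51, Wnt7a 42 and Sfrp2 22, while Dkk3, Wnt10a, Wnt5a, Wnt7b and Sfrp1 were not matched. The motif CTTTGA, the core that Tcf and Lef factors bind, was searched on both strands. It was in none of the 5 matched windows and in 16.0% of all windows. Methylation was not measured in these samples, so these letters are context only.

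Levels of the 10 genes were compared per length, as CPM divided by the kilobases of the union of annotated exons (RPKM). Dkk3 was the highest by far at 124 ± 16.9 RPKM (SD, n = 14), and at or above 97.3% of tested genes by its CPM. Wnt7b followed at 10.0 ± 0.877 RPKM and Wnt9a at 8.31 ± 1.63, with Wnt7b above Wnt9a in 11 of 14 animals and overlapping ranges. Axin2 stood at 6.34 ± 0.492 RPKM, Wnt10a at 4.55 ± 1.12, Wnt7a at 3.51 ± 0.608 and Sfrp1 at 3.10 ± 0.541. Each of these ranges overlapped the next, although Wnt9a exceeded Axin2, and Axin2 exceeded Wnt10a, within 14 of 14 animals. Wnt10a exceeded Wnt7a in 12 of 14 animals, and Wnt7a exceeded Sfrp1 in 10. Wnt4 (1.98 ± 0.363 RPKM), Wnt5a (1.33 ± 0.219) and Sfrp2 (0.640 ± 0.233) closed the order, each below its upper neighbour in 14 of 14 animals. The order was the same when the longest annotated transcript was used as the length.

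**Figure D1:**
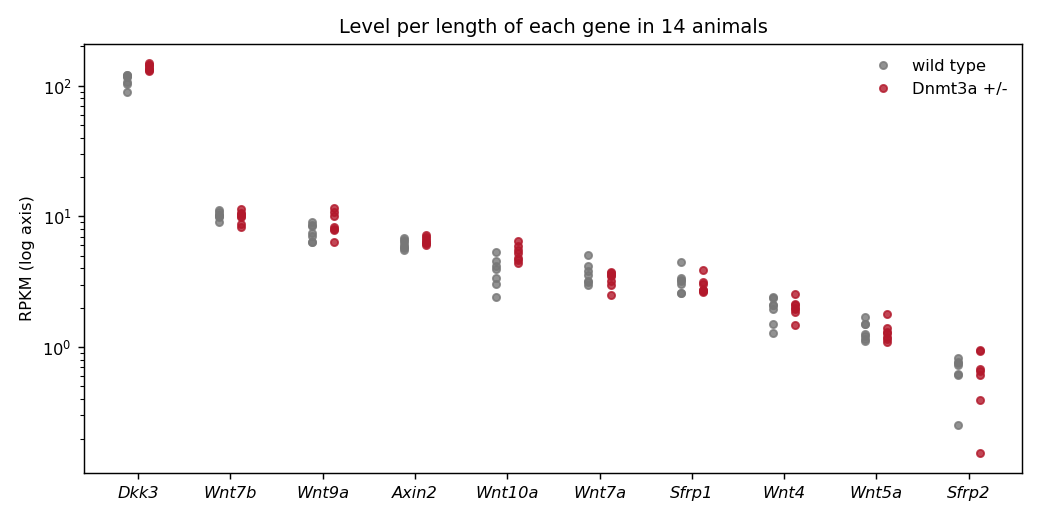
Level per length (RPKM, log axis) of the 10 genes in each of the 14 animals, wild-type animals in grey and heterozygous animals in red, ordered by mean. Dkk3, at 89.1 to 147 RPKM, lies above all other genes in every animal, and Sfrp2, at 0.154 to 0.950 RPKM, lies lowest.

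Among the secreted modulators, Dkk3 was higher in heterozygous cortex in every comparison of animals. Wild-type animals had 299 CPM at the lowest, 389 at the median and 407 at the highest, and heterozygous animals had 432, 457 and 495 CPM. The genotypes did not overlap. Means were 371 ± 39.0 and 462 ± 24.03 CPM (SD, n = 7 each), a fitted 1.25-fold difference (log2 fold change 0.32, SE 0.0711, with sex as a term). Among all tested genes, 0.0796% had every heterozygote above every wild-type animal and 0.0434% the reverse. Summed markers of cortical excitatory neurons, and those of deep-layer neurons, were also higher in heterozygotes in 5 of 6 prefixes. Those of inhibitory neurons were higher in 3 of 6, and those of the other marker lists in 1 to 4 of 6. In bulk tissue, more cells that express a gene and more RNA per cell cannot be told apart.

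Within prefixes the log2 CPM of Dkk3 was higher in heterozygotes in 6 of 6, a pattern held by 2.38% of all tested genes. The difference was smallest in prefix 046 (0.0856), where the wild-type male had 407 and the heterozygous male 432 CPM. It was largest in prefix 141 (0.44), where the 2 wild-type females averaged 328 and the 2 heterozygous females 444 CPM. The lowest wild-type animal of the series belongs to that prefix. The remaining prefixes lay between 0.28 and 0.39. A fit that blocked on prefix instead of sex gave a log2 fold change of 0.32 (SE 0.0525). It was 0.27 (SE 0.0753) in set A and 0.38 (SE 0.0871) in set B.

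Sfrp1 and Sfrp2, which encode secreted Frizzled-related proteins, showed no such separation. Sfrp1 had 11.3 CPM at the lowest, 13.9 at the median and 19.6 at the highest in wild-type animals, and 11.6, 12.04 and 16.9 CPM in heterozygotes. Its log2 fold change was -0.10 (SE 0.122), with 3 prefixes higher and 3 lower. The highest wild-type animal came from prefix 141, and without it (wild type replicate 6) the value was -0.010. Sfrp2 was near the lower limit of measurement, with 4 to 27 reads per animal and a mean count under 20, and its values are uncertain. It had 0.546, 1.57 and 1.77 CPM (lowest, median, highest) in wild-type and 0.331, 1.42 and 2.05 CPM in heterozygous animals, and a log2 fold change of -0.075 (SE 0.290). Annotation places an antisense gene across 16.1% of the exonic bases of Sfrp2 and smaller parts of Wnt5a, Wnt7b and Axin2 (3.80% to 6.61%). The strand setting of the counting was not stated in the material used, so reads of the 2 strands could be mixed.

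**Figure D2:**
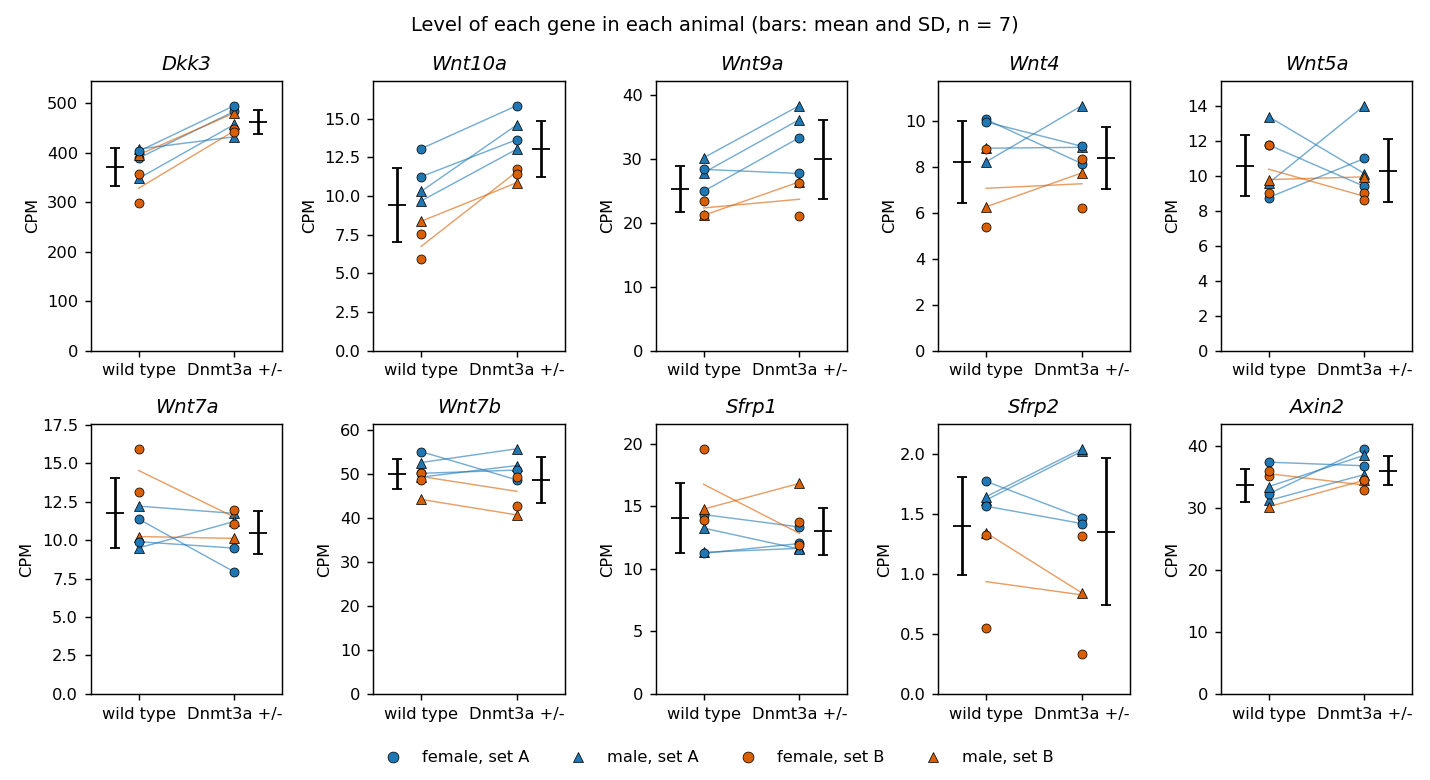
CPM of each gene in each animal by genotype, with circles for females, triangles for males, blue for set A and orange for set B. Lines join the genotype means of each title prefix, and black bars give the mean and SD of 7 animals. Dkk3 separates by genotype (299 to 407 against 432 to 495 CPM), Wnt10a is higher at the heterozygous end of each line but overlaps, and the other genes overlap widely.

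Of the ligand genes, Wnt10a, known for its part in tooth, hair and skin development, had the highest log2 fold change of the 6 described here. Wild-type animals had 5.93 CPM at the lowest, 9.69 at the median and 13.1 at the highest (58 to 162 reads). Heterozygotes had 10.9, 13.0 and 15.8 CPM (129 to 173 reads). The genotypes overlapped over the whole series, and set B animals were the lower ones of each genotype. In set B the wild-type animals (5.93 to 8.37 CPM) and the heterozygotes (10.9 to 11.8 CPM) did not overlap, and in set A the ranges (9.69 to 13.1 and 13.0 to 15.8 CPM) overlapped at their edge. With 3 animals of each genotype in set B, 10.8% of all tested genes had every heterozygote higher there and 11.3% every wild-type animal.

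Means of Wnt10a were 9.45 ± 2.39 and 13.0 ± 1.81 CPM (SD, n = 7 each), a fitted 1.36-fold difference (log2 fold change 0.45, SE 0.143, with sex as a term). With the prefix as a block the value was 0.47 and its SE was 0.0873. Heterozygotes were higher in 6 of 6 prefixes, by 0.27 (prefix 139) to 0.78 (prefix 141) on the log2 CPM scale. The fitted log2 fold change was 0.36 (SE 0.116) in set A and 0.62 (SE 0.145) in set B. The 2 wild-type females of prefix 141 had the lowest levels of all, 5.93 and 7.56 CPM.

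Wnt9a, a ligand gene known from limb joint formation, came next. It had 21.2, 24.99 and 30.2 CPM (lowest, median, highest) in wild-type animals and 21.1, 27.8 and 38.4 CPM in heterozygotes, so the genotypes overlapped. The 3 highest animals of the series, at 33.4 to 38.4 CPM, were set A heterozygotes. Heterozygotes were higher in 5 of 6 prefixes, by 0.32 to 0.42 in prefixes 046, 047, 048 and 119 and by 0.078 in prefix 141, with -0.0328 in prefix 139. The log2 fold change was 0.23 in both fits, with an SE of 0.114 with sex as a term and 0.0683 with the block.

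The remaining ligand genes had differences smaller than their spread. Wnt4, known from kidney and gonad development, had 8.22 ± 1.78 CPM in wild-type and 8.42 ± 1.35 CPM in heterozygous animals (SD, n = 7 each). Its prefixes ran from -0.30 (prefix 047) to 0.37 (prefix 048). Wnt5a had 10.6 ± 1.73 and 10.3 ± 1.81 CPM, with prefixes from -0.40 (046) to 0.54 (048) and 3 on each side of 0.

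Wnt7a had 9.49, 11.4 and 15.9 CPM (lowest, median, highest) in wild-type and 7.92, 11.1 and 11.9 CPM in heterozygous animals. It was lower in heterozygotes in 5 of 6 prefixes (log2 fold change -0.15, SE 0.121). The highest wild-type animal was again from prefix 141, and without it (wild type replicate 6) the value was -0.067. Wnt7b, its close relative, varied least among the 6 ligand genes relative to its mean. It had 49.9 ± 3.37 and 48.5 ± 5.23 CPM (SD, n = 7 each), with prefixes from -0.18 to 0.083.

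Axin2, the feedback target of the beta-catenin branch, had 30.2 CPM at the lowest, 33.5 at the median and 37.5 at the highest in wild-type animals. Heterozygotes had 33.0, 35.5 and 39.6 CPM. The ranges overlapped over most of their length, and the log2 fold change was 0.099 (SE 0.0654). In 4 prefixes the heterozygote was higher, by 0.18 to 0.29 (046, 047, 048 and 119). In prefixes 139 and 141, the difference was -0.0227 and -0.0771. Prefixes 047, 139 and 141 are female, and 047 had the highest difference (0.29). The fitted log2 fold change was 0.027 (SE 0.0856) in females and 0.19 (SE 0.0987) in males. Set A gave 0.16 (SE 0.0739) and set B 0.012 (SE 0.0857).

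**Figure D3:**
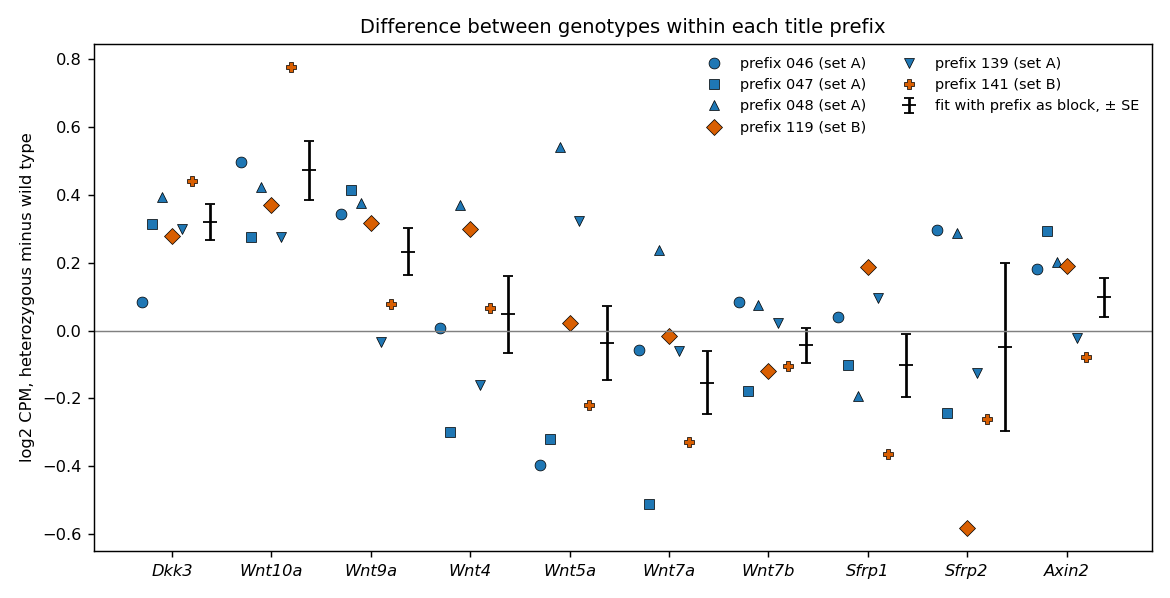
Difference in log2 CPM, heterozygous minus wild type, within each of the 6 title prefixes, with 1 animal per genotype in each prefix except 141, which has 2. Black bars give the log2 fold change ± SE of the fit with the prefix as a block. All 6 points lie above 0 for Dkk3 (0.0856 to 0.44) and Wnt10a (0.27 to 0.78), and points of the other genes lie on both sides.

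Across the 10 genes, 5 log2 fold changes were positive and 5 negative, with a median of -0.0043 against 0.0024 over all tested genes. With sex as a term, 0 of the 10 were among the 2 genes called at an adjusted p under 0.05, which are 0.0145% of those tested. With the block, Dkk3 and Wnt10a were among the 56 called (0.405% of genes in either direction, 0.261% higher), at ranks 6 and 13 by p. With sex and set as terms both were again called, among 15 genes (0.109% in either direction, 0.0869% higher and 0.0217% lower), while 9.82% of genes had an unadjusted p under 0.05. These calls are the values by which the 2 genes had been chosen. At the edge of the block's threshold lay Slc25a18 inside (log2 fold change -0.37) and Ddn outside (-0.28). The authors' deposited table listed Dkk3 at a shrunken log2 fold change of 0.27 (adjusted p = 0.000874) and Wnt10a at 0.30 (adjusted p = 0.00796), within 0.141% of its genes called as higher. Wnt9a had 0.18 in the authors' deposited table (adjusted p = 0.238), and the other 7 genes had adjusted p of 0.704 to 0.966 there.

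Other genes of the pathway were counted by role, from lists of 103 further genes, of which 87 were tested. None passed an adjusted p of 0.05 by edgeR with sex as a term, where 1 had an unadjusted p under 0.05 and 4% of all genes did. DESeq2 and the fit with sex and set called 0 as well, and so did the block, where 12 of 87 (13.8%) had an unadjusted p under 0.05 beside 12.9% of all genes. Of the 90 that had an adjusted p in the authors' deposited table, 0 passed. Values were positive for 34 and negative for 53, with a median log2 fold change of -0.027.

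Ligand genes outside the 10 were scarce: 5 of 13 were tested, at means of 1.47 to 3.86 CPM, and Wnt3a had no read in any animal. Wnt6, which lies next to Wnt10a in the genome, had a log2 fold change of -0.53 (SE 0.267) at a mean count under 20, and is uncertain. Wnt2b had 0.090 and Wnt2 -0.14. Of 12 other secreted inhibitors 7 were tested, with 2 positive. Dkkl1, a relative of Dkk3, had 13.3 ± 1.43 CPM in wild-type and 14.4 ± 1.74 CPM in heterozygous animals (SD, n = 7 each), a log2 fold change of 0.12. Dkk2 (-0.39) and Wif1 (-0.41) had mean counts under 20, as had 2610109H07Rik (0.37), the older name of Draxin. Dkk1 and Dkk4 had at most 1 read in any animal.

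Among genes listed under ligand release and the Rspondin axis, which protects Frizzled receptors from turnover, 3 of 12 were positive. That list also held Ndp and Tspan12, which belong to neither group. Lgr5, an Rspondin receptor gene and itself a Wnt target, had 3.00 ± 0.653 CPM in wild-type and 3.86 ± 0.360 CPM in heterozygous animals (SD, n = 7 each). The log2 fold change of Lgr5 was 0.35 (SE 0.145), and it was the 1 gene with an unadjusted p under 0.05 in that fit. Wls, which carries Wnt proteins to the cell surface, had -0.084, Rspo2 0.12 and Ndp -0.15. Of 19 tested receptor genes 9 were positive, with Fzd3 at 0.12, Fzd6 at 0.17, Fzd9 at -0.22 and Lrp5 at -0.10.

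Inside the cell, 10 of 15 genes of signal transduction and the destruction complex were positive. Axin1, the constitutive relative of Axin2, had 0.15 (SE 0.0734), and Ctnnb1, which encodes beta-catenin, had -0.11 (SE 0.0547). Dvl3 had 0.088 and Dvl1 -0.11. Nuclear factors had 3 of 12 positive, with Tle4 at 0.073, Bcl9 at 0.085, Bcl9l at -0.11 and Tcf7l1 at -0.21. Feedback and target genes besides Axin2 had 3 of 13 positive and a median of -0.031, with Cd44 at 0.057, Znrf3 at -0.067 and Tnfrsf19 at -0.075. In planar cell polarity, the branch that orients cells without beta-catenin, 4 of 10 were positive, with Prickle1 at 0.14, Prickle3 at 0.20 (mean count under 20), Prickle2 at -0.098 and Daam2 at -0.19.

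**Figure D4:**
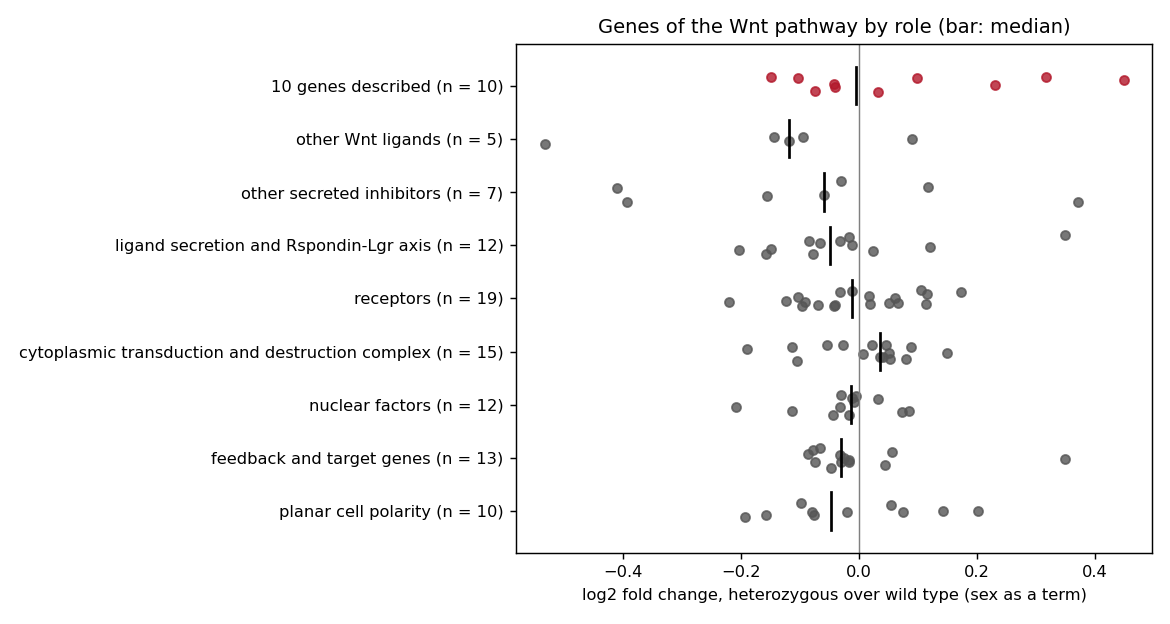
Log2 fold change, heterozygous over wild type with sex as a term, of the 10 genes described (red) and of tested genes of 8 pathway lists (grey), each point a gene and each bar the list's median; 6 genes stand in more than 1 list. List medians lie between -0.12 and 0.036, and Wnt10a (0.45) and Dkk3 (0.32) are the right-most red points.

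Sex was compared next, since it had no part in the choice of the genes. Each prefix holds 1 sex, so sex lies between 3 female and 3 male prefixes. Animals of a prefix deviated together from their genotype means. The test and its intervals take the 14 animals as independent, and a difference between sexes cannot be told apart from one between prefixes. None of the 10 was called as different between the 8 females and the 6 males by edgeR's quasi-likelihood test with genotype as a term. Adjusted p was 0.708 to 0.973, 0 had an unadjusted p under 0.05, DESeq2 called 0 of them, and 1 of all tested genes passed (0.00724%, beside 6.98% at an unadjusted p under 0.05). The fit called 0 genes as higher in males. Its filter was set by genotype, with 7 animals each, so a gene read only in the 6 males could not be tested. With no filter beyond 1 read, 9 genes were called for sex. The lack of a call among the 10 does not show equal levels. No gene of the 10 had every female above every male (0.116% of all) or every male above every female (0.101%). Females (n = 8) averaged 414 ± 66.0 CPM of Dkk3 and males (n = 6) 420 ± 47.1 CPM, with SD. Its log2 difference, female minus male, was -0.026 (95% interval -0.18 to 0.12). Wnt10a had 11.3 ± 3.22 and 11.1 ± 2.29 CPM, with an interval of -0.28 to 0.33. Wnt9a had the smallest p, with 25.8 ± 4.09 CPM in females and 30.1 ± 6.38 CPM in males (log2 difference -0.21, 95% interval -0.45 to 0.029, adjusted p = 0.708 by edgeR). Sfrp2 had the widest interval, -0.99 to 0.23.

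The genotype difference was also set against sex. For Dkk3 it was 0.37 (SE 0.0960) in females and 0.25 (SE 0.111) in males, and for Wnt10a 0.45 (SE 0.197) and 0.44 (SE 0.226). The difference between these was 0.12 (95% interval -0.19 to 0.43) for Dkk3 and 0.011 (-0.62 to 0.65) for Wnt10a. Wnt7a had -0.30 (SE 0.157) in females and 0.046 (SE 0.180) in males, Wnt4 -0.12 and 0.23, and Axin2 0.027 and 0.19. The interaction of genotype and sex passed for 0 of the 10 and for 0 of all tested genes by edgeR (0%), and DESeq2 called 0 as well. Unadjusted, 0 of the 10 and 144 genes in all (1.04%) were under 0.05. Every adjusted p was 1.00. Intervals of the interaction were wide, from -0.97 to 0.26 for Wnt4 and from -0.44 to 0.11 for Axin2.

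Levels of several genes also differed between the sets of title prefixes, mostly with overlapping ranges. Sets are described without a test, since they were named from these counts. Wnt10a was at 12.7 ± 2.13 CPM in set A (SD, n = 8) and 9.32 ± 2.38 CPM in set B (SD, n = 6), a log2 difference of -0.46 (SE 0.0956, set B minus set A). That is as large as its difference between genotypes. Wnt9a (30.9 ± 4.65 and 23.3 ± 2.55 CPM, -0.38) and Wnt4 (9.21 ± 0.921 and 7.12 ± 1.36 CPM, -0.39) were also lower in set B. Sfrp2 was the 1 gene whose sets did not overlap, at 1.42 to 2.05 CPM in set A and 0.331 to 1.34 CPM in set B, while 6.16% of tested genes lay wholly higher in set A and 5.96% wholly higher in set B. Sfrp1 (0.29) and Wnt7a (0.19) were higher in set B, and Dkk3 (-0.085) and Axin2 (-0.086) differed little. Of the 10 genes, 2 were higher in set B, with a median of -0.18 against -0.0013 over all tested genes.

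**Figure D5:**
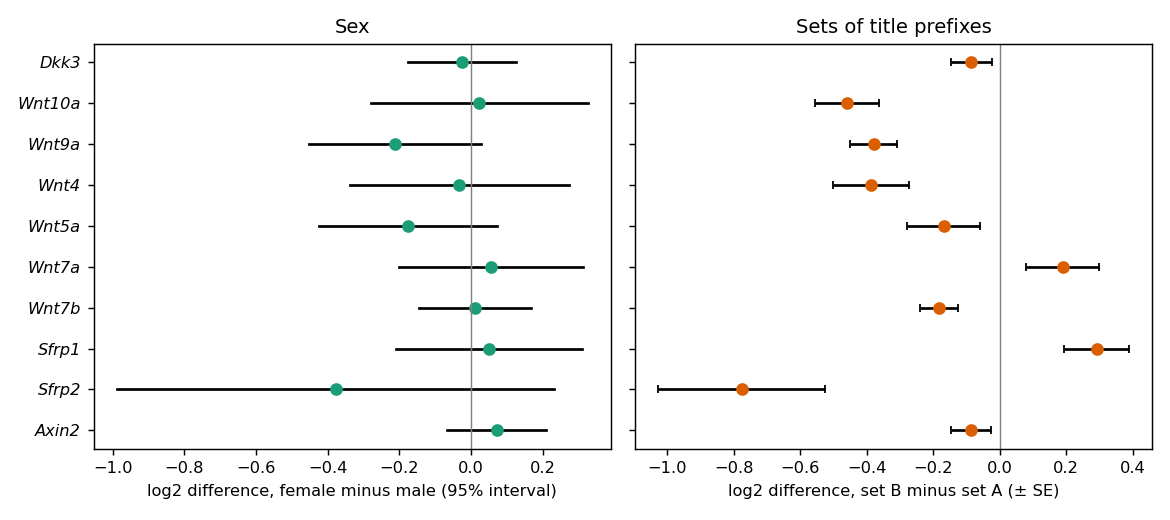
Log2 differences of the 10 genes, female minus male with 95% intervals (left) and set B minus set A with SE (right). All intervals for sex include 0, while Wnt10a, Wnt9a, Wnt4 and Sfrp2 lie between -0.38 and -0.78 and Sfrp1 at 0.29 for the sets.

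Patterns over the 14 animals were compared by Pearson's r of log2 CPM after the means of sex and set were removed, as a description. Wnt10a resembled Dkk3 more than 99.95% of tested genes did (r = 0.903), and the difference between genotypes is part of both patterns. Outside the 10 genes, Dkk3 was most like Igfbp4 (r = 0.975), Prss12 (0.947), Relt (0.926), Chrna4 (0.918) and Lphn2 (0.912). Wnt10a was most like Arhgef3 (0.935), Chrna4 (0.930), Mmp17 (0.923), Ctr9 (0.920) and Gpr137c (0.914). Igfbp4, an insulin-like growth factor binding protein gene, had a log2 fold change of 0.27 and Chrna4, a nicotinic receptor subunit gene, 0.34. Wnt9a had r = 0.493 with Dkk3 and 0.540 with Wnt10a, and Axin2 0.297 and 0.198. Wnt7a went the other way, at -0.615 and -0.554. All values share the same 14 libraries, and the named genes have the highest r among 13815.

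Genes next to the 10 in RefSeq order were read as well. Usp47 and Mical2, on either side of Dkk3, had log2 fold changes of 0.098 (SE 0.0580) and 0.100 (SE 0.0761), below the 0.32 of Dkk3. Cdk5r2, on the other side of Wnt10a from Wnt6, had -0.046 (SE 0.0620). Wnt3a and Prss38, beside Wnt9a, had at most 1 read in any animal. None of the tested neighbours passed by edgeR, where 0.0145% of all genes did with sex as a term and 0.405% with the block. Their adjusted p by edgeR was 0.978 to 0.999 and 0.212 to 0.978 in these fits. With the block, Usp47, Wnt6, Cacna2d3, Ppara and Zmat4 had an unadjusted p under 0.05, with log2 fold changes of both signs. That is a larger share of the tested neighbours than the 12.9% of all genes, and the excess was not tested.

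Cell type markers were read beside these values. Markers of cortical excitatory neurons, among them Slc17a7, were all measured. Their summed level was 1877 to 2635 CPM among wild types and 2100 to 2713 CPM among heterozygotes, with 8 of 10 positive and a median log2 fold change of 0.12. Deep-layer neuron markers had 9 of 12 positive (median 0.093, summed 653 to 870 and 748 to 925 CPM). Inhibitory neuron markers had 7 of 8 positive (median 0.035, 569 to 827 and 661 to 858 CPM). Relative to the summed excitatory neuron markers of the same animal, Dkk3 was higher in 6 of 6 prefixes, by a mean of 0.25 on the log2 scale in place of 0.32, with overlapping genotypes. Wnt10a was higher in 6 of 6 by 0.41 in place of 0.49, and Wnt9a in 4 of 6 by 0.15 in place of 0.22. These values are differences between genotype means on the log2 scale, not fitted log2 fold changes. Such ratios were taken for Dkk3, Wnt10a and Wnt9a and for neuron markers only. Relative to deep-layer or inhibitory markers Dkk3 was higher in 5 of 6 prefixes.

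Astrocyte markers had 0 of 12 positive, with a median of -0.19 and summed levels of 9798 to 17997 CPM among wild types and 9396 to 14609 CPM among heterozygotes. Their sums were 9396 to 10846 CPM in set A and 12628 to 17997 CPM in set B, the same order of sets as for Sfrp1 and Wnt7a. Summed neuron markers had the opposite order, that of the rest of the 10 genes, of which Dkk3 and Axin2 differed little. Excitatory markers had 2439 to 2713 CPM in set A and 1877 to 2330 CPM in set B. Deep-layer markers had 835 to 925 and 653 to 812 CPM, and inhibitory markers 741 to 858 and 569 to 725 CPM. Both orders were also found in other lists, by their median log2 difference of set B minus set A. It was 0.28 for thalamic, 0.17 for microglia and 0.15 for endothelial and pericyte markers. It was -0.41 for striatal, -0.25 for hippocampal and -0.25 for meningeal and fibroblast markers. The remaining lists lay between -0.025 and 0.044. Between genotypes, endothelial and pericyte markers had 0 of 10 positive (median -0.15, 245 to 322 and 231 to 269 CPM). Markers of meninges and fibroblasts had 3 of 10 positive (median -0.12, 99.5 to 155 and 93.1 to 134 CPM), and markers of choroid plexus 0 of 4 (median -0.33, 6.47 to 10.6 and 3.51 to 7.85 CPM). Striatal markers had 1 of 10 positive (median -0.095, 288 to 779 and 245 to 805 CPM), hippocampal markers 2 of 7 (median -0.092, 177 to 241 and 180 to 230 CPM), and thalamic markers 2 of 5 (median -0.038, 140 to 173 and 148 to 178 CPM). Microglia markers had 1 of 10 positive (median -0.092, 319 to 481 and 350 to 414 CPM). Oligodendrocyte markers had 8 of 10 positive (median 0.14, 3625 to 6239 and 3647 to 6144 CPM), and markers of their precursors 2 of 7 (median -0.031, 326 to 361 and 318 to 365 CPM). No listed marker was without reads in all animals. With sex as a term 0 markers were called by edgeR, and with the block 1 deep-layer and 1 astrocyte marker were. The part of these cell types in the values of the 10 genes was not tested.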

How the data were processed

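RNA libraries of mouse cortex were made with a directional kit and read as single ends, per the labels' protocols. The authors deposited 1 table of read counts per gene symbol for 14 animals, with no normalization. It also holds the authors' comparison of genotypes, per the file headers: a shrunken log2 fold change, the test's score, the p-value and its adjusted form. Per the submitters' processing notes, Trim Galore, Bowtie, STAR, bedtools and the mm9 build were used, in roles not stated. The build of the gene annotation used here (GENCODE M21, GRCm38) differs, so it gave lengths, overlaps and neighbours only.

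Counts were tested with edgeR 4.0.16 (R 4.3.3) (quasi-likelihood F test, TMM factors, filterByExpr by genotype) and Benjamini-Hochberg adjustment over 13815 genes at 0.05. Genotype had sex as a term, sex had genotype as a term, and the interaction came from 4 groups of genotype and sex. CPM values use TMM-scaled totals, and log2 CPM a prior count of 2. Each SE is the absolute log2 fold change over the root of F. DESeq2 1.42.0, other terms and filters, and leaving out animals were tried as alternatives. The code was tested on simulated data.

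Same-prefix animals of opposite genotype deviated together from their genotype means (r from 0.200 to 0.517 across genes in 9 pairs). Pairs of different prefixes were not compared, so a shared prefix cannot be told apart from a shared set or sex here. The pairing rests on the titles alone, which do not say what they mark. Values with that block are printed where they change a count of genes called. With the block 2 of 10 microglia markers and 3 of 7 hippocampal markers were positive, in place of 1 and 2.

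The genes and lists were chosen with earlier results of these data known. All 10 genes are named. Of other pathway genes, those called in a fit or in the deposited table, and up to 2 per direction and list with the smallest p, are named, and the 5 genes with the highest r for Dkk3 and for Wnt10a.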

Additional observations from a re-analysis of the deposited data

Results flagged for a closer look

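Sfrp2 in 1 wild-type female of prefix 141 stood apart from the other wild-type animals, at 0.546 CPM (6 reads) against 1.33 to 1.77 CPM. Its gap to the nearest animal was 0.74 of the group's range on the log2 scale. It was the 1 such value among 20 combinations of gene and genotype examined, where chance gives about 1 in 20. A heterozygous female of the same prefix was lower still, at 0.331 CPM (4 reads).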

How the results depend on the processing

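Leaving out 1 animal changed the sign of the log2 fold change between genotypes for Wnt4 (-0.046 leaving out wild type replicate 7, and 0.098 leaving out heterozygous replicate 7), Wnt5a (-0.12 leaving out heterozygous replicate 1, and 0.016 leaving out wild type replicate 2) and Sfrp2 (-0.19 and 0.091 for the same animals as Wnt4). Sfrp1 ran from -0.19 to -0.010, Wnt7a from -0.19 to -0.067, Wnt7b from -0.084 to -0.0020, Wnt9a from 0.17 to 0.29 and Axin2 from 0.072 to 0.13. That of Dkk3 lay between 0.27 and 0.34 without 1 animal, and between 0.28 and 0.36 with the replicate block. For Wnt10a these ranges were 0.36 to 0.55 and 0.42 to 0.51. In the 14 paired fits with the replicate block and 1 animal less, Dkk3 was among the genes called in 14 and Wnt10a in 13, the exception being without wild type replicate 5, where 10 genes were called in all. These fits called 10 to 120 genes, the most without wild type replicate 1, beside 56 with all animals (0.405% of tested genes). DESeq2 called Dkk3 and not Wnt10a, among 11 genes. Both genes were chosen by this difference in the same animals, so these calls are a description and no test of it. Pathway genes outside the 10 gave 0 calls in every alternative run.

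Counts over all genes did depend on the fit. Genotype gave 2 genes with sex as a term, 56 with the replicate block, 15 with the set term and 11 by DESeq2. Without 1 animal it gave 1 to 4 with sex as a term, and 10 to 120 with the block. With sex as a term there were 4 without wild type replicate 1, and 1 without wild type replicate 6 or 7 or heterozygous replicate 1, 2, 3, 5, 6 or 7. Sex gave 1 gene, 17 with the set term, 9 with no filter and 11 by DESeq2. Without 1 animal it gave 1 to 12: 12 without wild type replicate 1, 2 without wild type replicate 2, 6 without wild type replicate 3 or heterozygous replicate 3 or 4, and 5 without wild type replicate 6 or 7 or heterozygous replicate 6 or 7.

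Sex differences near 0 changed sign without passing. Wnt4 went to 0.032 with the set term. Without 1 animal Dkk3 ran from -0.050 to 0.016, Wnt10a from -0.059 to 0.094, Wnt4 from -0.11 to 0.050, Wnt7a from -0.015 to 0.11, Wnt7b from -0.035 to 0.059 and Sfrp1 from -0.032 to 0.15, and the sign changed for each at its end of the range. The cause was not tested. Sfrp2, with at most 27 reads per animal, is limited by depth.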
